A study of Mus musculus with 11 samples.

Results

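Pericytes and smooth muscle cells are the mural cells that wrap the vessels of bone, and 10 genes commonly read as their markers were followed here in whole distal tibiae of mice with and without a toxin directed at bone marrow (BM) adipocytes. The 10 genes were taken by symbol from a merged count table of 22600 genes, and all 10 were in it and passed the filter on low counts. They are Acta2, Tagln, Myh11 and Cnn1 of the contractile apparatus, the filament gene Des, the receptors Pdgfrb and Notch3, the signalling gene Rgs5, and the surface proteins Cspg4 and Mcam. RNA came from 4 Control and 7 BMAd-DTA mice, each giving 1 library, all on a mixed C57BL6/SJL strain background, 24 weeks old by the labels, fed ad libitum and with no other treatment named in the labels. Per the study's methods every mouse, Control mice included, carried Osterix-FLPo and FAC, an Adipoq-Cre that is turned into its working orientation by FLPo, so that Cre is made mainly where Osterix lineage and adiponectin expression coincide. BMAd-DTA mice also carried ROSA-DTA, from which Cre allows diphtheria toxin A to be made and the cell to die. The study describes Cre activity in BM adipocytes and in a small subset of marrow adipogenic lineage precursors, cells that are themselves described as pericytic, and recombination that is not complete at young ages. The tissue was bone with its marrow, cut at the junction of tibia and fibula and ground whole, so fewer cells of a type and less RNA per cell cannot be told apart.

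In vessels, smooth muscle cells of arteries and arterioles hold tone with actin and smooth muscle myosin, whereas pericytes of capillaries and sinusoids lie within the basement membrane and steady the endothelium. Endothelial PDGF-B recruits both through the receptor encoded by Pdgfrb, Jagged ligands on endothelium signal to Notch3, and the contractile genes are switched on by serum response factor with myocardin at DNA elements called CArG boxes. In marrow, perivascular stromal cells that give rise to adipocytes and bone-forming cells share Pdgfrb and Cspg4 with pericytes, and myofibroblasts share Acta2 and Tagln with smooth muscle, so that none of these genes by itself marks a single cell type.

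The promoters of 4 members are shown because they belong to the contractile gene that varied with the others and to the 3 members with the largest positive difference between genotypes. Each runs from 250 bases before to 50 bases after the annotated start, 5′ to 3′ on the gene's strand, from RefSeq on GRCm38.p6. Acta2 is at chr19:34255324-34255623 (minus strand), Rgs5 at chr1:169655251-169655550 (plus), Cspg4 at chr9:56864854-56865153 (plus) and Notch3 at chr17:32166841-32167140 (minus). Capitals mark CArG-like boxes, in which at most 1 of the 6 inner bases departs from the consensus of the CArG box, and GC boxes, which read CCGCCC on either strand.
Acta2: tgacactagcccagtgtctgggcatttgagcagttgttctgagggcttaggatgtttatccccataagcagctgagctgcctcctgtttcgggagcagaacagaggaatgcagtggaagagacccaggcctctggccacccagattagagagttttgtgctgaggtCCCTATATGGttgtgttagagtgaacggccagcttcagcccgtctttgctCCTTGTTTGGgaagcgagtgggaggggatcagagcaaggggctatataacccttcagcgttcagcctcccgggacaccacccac
Rgs5: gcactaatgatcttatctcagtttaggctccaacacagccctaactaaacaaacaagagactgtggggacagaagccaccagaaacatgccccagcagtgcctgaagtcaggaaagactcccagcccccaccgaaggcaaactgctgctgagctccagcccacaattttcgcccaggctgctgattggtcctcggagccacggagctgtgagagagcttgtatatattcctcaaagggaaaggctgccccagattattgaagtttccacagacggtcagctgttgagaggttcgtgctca
Cspg4: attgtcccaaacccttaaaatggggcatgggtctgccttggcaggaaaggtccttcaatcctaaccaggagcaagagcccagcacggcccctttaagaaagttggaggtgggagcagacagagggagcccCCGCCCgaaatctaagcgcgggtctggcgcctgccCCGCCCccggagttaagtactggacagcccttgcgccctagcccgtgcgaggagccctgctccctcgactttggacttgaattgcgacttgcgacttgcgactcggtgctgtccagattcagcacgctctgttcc
Notch3: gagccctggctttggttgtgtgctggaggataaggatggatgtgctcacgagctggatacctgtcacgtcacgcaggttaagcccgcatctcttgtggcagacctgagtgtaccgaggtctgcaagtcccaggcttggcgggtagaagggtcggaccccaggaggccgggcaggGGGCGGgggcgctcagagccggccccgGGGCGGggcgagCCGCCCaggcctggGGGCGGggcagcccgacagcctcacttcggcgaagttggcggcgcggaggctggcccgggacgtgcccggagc
The Acta2 window held 2 CArG-like boxes, beginning 84 and 34 bases before the start, and no exact CArG box. CArG-like boxes, on both strands and counting exact boxes too, were in 9.98% of the 32851 mouse promoters of the table, and exact ones in 1.63%. The relaxed form was searched after no exact box was found in any of the 7 members with an entry, and among those 7 the relaxed form was in the Acta2 window alone. GC boxes were in the windows of Des, Notch3, Cspg4 and Mcam, with 2 to 5 each, against 35.7% of all promoters. The letters TATAAA (13.6% of promoters) and the Notch effector motif GTGGGAA on either strand (6.38%) were in none of the 7. Tagln, Myh11 and Pdgfrb had no entry.

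Levels are given as CPM, deposited counts scaled to a common library total that was adjusted by the TMM method, and levels of different genes are compared only as CPM per kilobase of exon. On that per-length scale Acta2 was highest, with 23.7 ± 6.37 CPM per kilobase (SD over 11 libraries), followed by Pdgfrb with 22.3 ± 2.66 and Rgs5 with 22.1 ± 3.60. Acta2 exceeded Pdgfrb in 6 of 11 libraries and Pdgfrb exceeded Rgs5 in 8, so that the order within this leading trio did not stand out from its spread. Tagln followed with 12.1 CPM per kilobase, then Mcam, and this pair exchanged places in 4 of 11 libraries, and Notch3 lay at 8.31, below Mcam in all 11. Des, Myh11 and Cspg4 lay between 4.58 and 2.90 CPM per kilobase, and Des exceeded Myh11 in only 5 libraries although its mean was higher. Cnn1 was last with 0.322 CPM per kilobase and rested on 2 to 41 counts per library, so its values are the least precise of the 10. Library totals ran from 16969529 to 18637663 counts. The summed level of 10 adipocyte markers, read as a check of the model, was 1054 to 1821 CPM in Control and 405 to 1275 CPM in BMAd-DTA, and all 10 had negative fold changes, of which that of Retn passed the edgeR threshold.

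**Figure D1:**
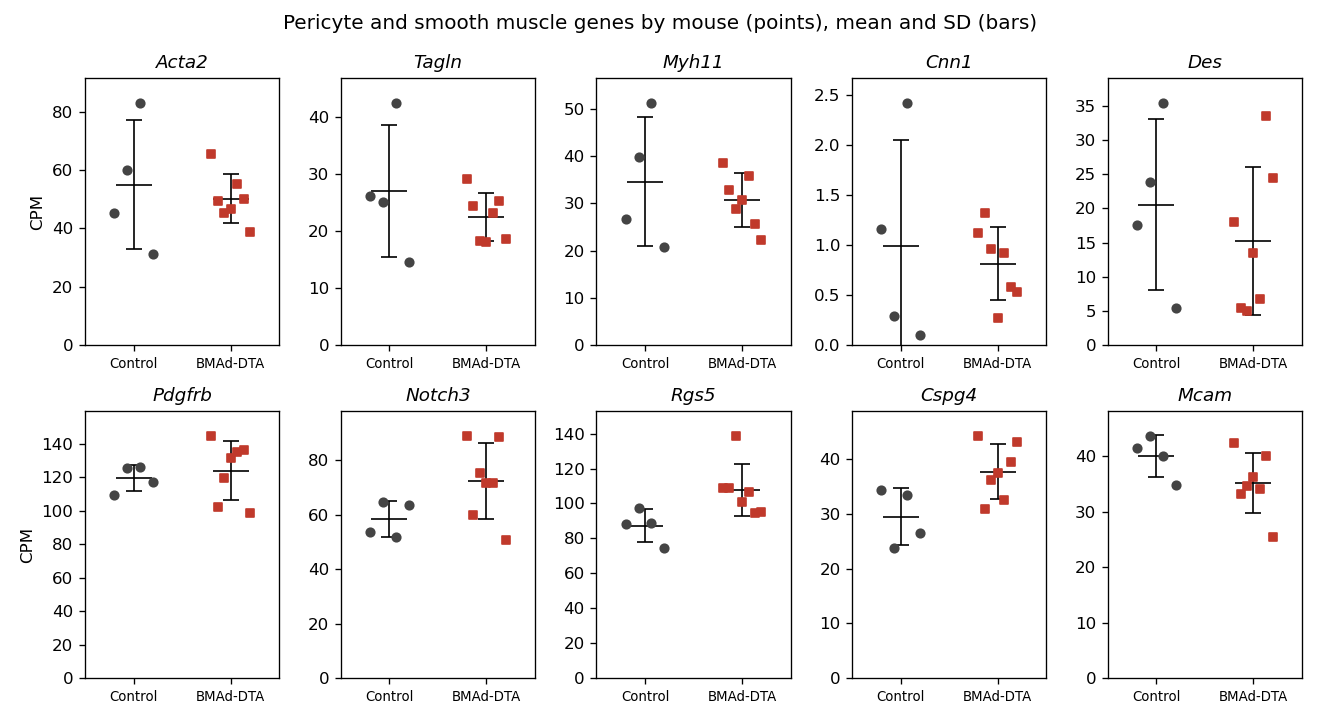
CPM of each member (vertical axes, from 0) in the 4 Control and 7 BMAd-DTA libraries (points, 1 per mouse), with the group mean and SD as bars; for Cnn1 the lower end of the Control bar lies below 0 and is cut off. Control values of the contractile genes span those of BMAd-DTA, Des ranges alike in both groups, whereas most BMAd-DTA values of Rgs5, Cspg4 and Notch3 lie above all Control values.

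No member differed between genotypes past an adjusted p of 0.05. The edgeR test called 0 of 10 members, against 13 of 16496 genes tested (0.0788%), and DESeq2 also called 0 of 10, against 5.42% of its genes. At an unadjusted p under 0.05, edgeR passed 3 of 10 members, Rgs5, Cspg4 and Notch3, all with higher values in BMAd-DTA, against 16.4% of all genes. The groups overlapped for all 10 members, against 2.81% of genes whose groups did not overlap. Of the log2 fold changes 4 were positive and 6 negative, with a median of -0.15 beside 0.0018 over all genes tested. The contractile genes and Des had fold changes below 0 with wide intervals, the receptors, Rgs5 and Cspg4 fold changes above 0 with narrower ones, and Mcam a fold change below 0 with a narrow one. The median depended on the setting: it was 0.04 with a skeletal muscle score as a covariate, with 6 of 10 members positive, 0.11 without Control replicate 3 and -0.0040 with limma-voom.

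**Figure D2:**
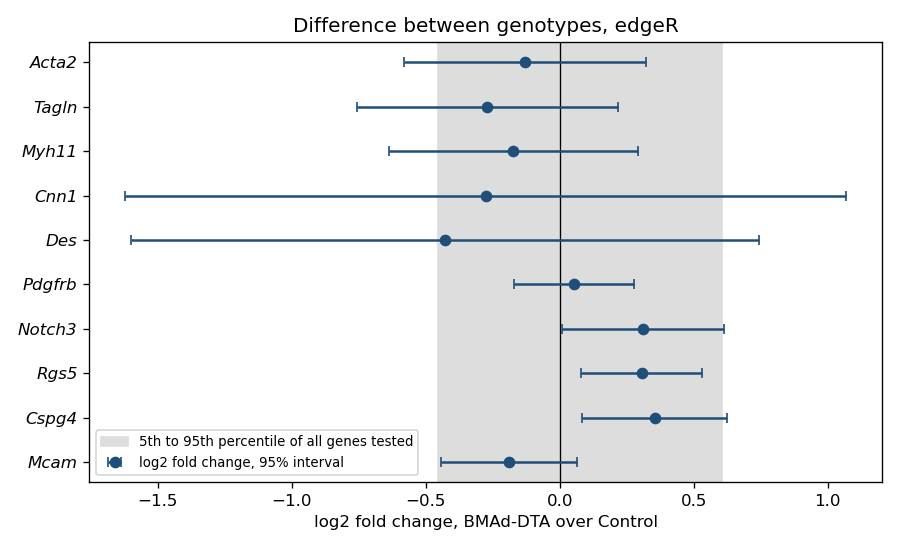
Log2 fold change of each member, BMAd-DTA over Control (horizontal axis), as points with 95% intervals from edgeR (4 Control and 7 BMAd-DTA mice), over a grey band from the 5th to the 95th percentile of all genes tested (-0.46 to 0.60). All 10 points lie within the band, and the intervals of Notch3, Rgs5 and Cspg4 lie above 0 before adjustment.

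Among the contractile genes, Acta2, which encodes the smooth muscle form of alpha-actin, was measured at 45.4, 60.2, 83.1 and 31.4 CPM in Control replicates 1 to 4. In BMAd-DTA it ran from 38.8 to 65.6 CPM with a median of 49.6. All 7 BMAd-DTA values fell between the Control extremes, with Control replicate 3 highest and Control replicate 4 lowest of the 11. The log2 fold change was -0.13 (SE 0.21, 95% interval -0.58 to 0.32), with an edgeR adjusted p of 0.812.

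Myh11, the myosin heavy chain of smooth muscle, was at 26.6, 39.9, 51.3 and 20.7 CPM in Control and at 22.3 to 38.6 CPM, median 30.6, in BMAd-DTA. Tagln, an actin-binding protein of the smooth muscle cytoskeleton also called SM22 alpha, was at 26.2, 25.1, 42.5 and 14.6 CPM in Control and at 18.2 to 29.2 CPM, median 23.2, in BMAd-DTA. For both genes Control replicates 3 and 4 were again the highest and the lowest of all libraries. Their log2 fold changes were -0.17 (SE 0.21, 95% interval -0.64 to 0.29, edgeR adjusted p = 0.749) for Myh11 and -0.27 (SE 0.23, 95% interval -0.76 to 0.22, edgeR adjusted p = 0.605) for Tagln.

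Cnn1, calponin, which restrains the actomyosin ATPase, was at 1.16, 0.294, 2.42 and 0.104 CPM in Control and at 0.273 to 1.32 CPM, median 0.918, in BMAd-DTA. The Control values again enclosed those of BMAd-DTA. At this depth the 95% interval of its log2 fold change (-0.28, SE 0.62, edgeR adjusted p = 0.874) ran from -1.62 to 1.07, which includes changes of 2 times in either direction.

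The spread of these genes lay within the Control group more than between genotypes. The coefficient of variation (SD over mean) of Acta2, Tagln and Myh11 was 39.6% to 42.6% in Control and 16.8% to 18.9% in BMAd-DTA. Across the 11 libraries the log2 CPM of Acta2 and Myh11 moved together (Pearson r = 0.95, permutation p = 1e-05, the smallest that 100000 resamples can give, adjusted p = 0.00045, Spearman rho = 0.89, permutation p = 0.00049, adjusted p = 0.022, both adjusted over 45 pairs of members). The r was 0.90 without the 2 libraries farthest from the median of Acta2 and 0.95 after the mean of each genotype was removed. Acta2 and Tagln had an r of 0.91 (permutation p = 0.00021, adjusted p = 0.0047) and a rho of 0.76 (permutation p = 0.0087, adjusted p = 0.13), and r fell to 0.72 without the 2 farthest libraries. For Tagln and Myh11, r was 0.80 (permutation p = 0.0032, adjusted p = 0.048) but 0.47 without those farthest in Tagln, and rho was 0.57 (permutation p = 0.071, adjusted p = 0.39), so this relation rested on Control replicates 3 and 4.

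**Figure D3:**
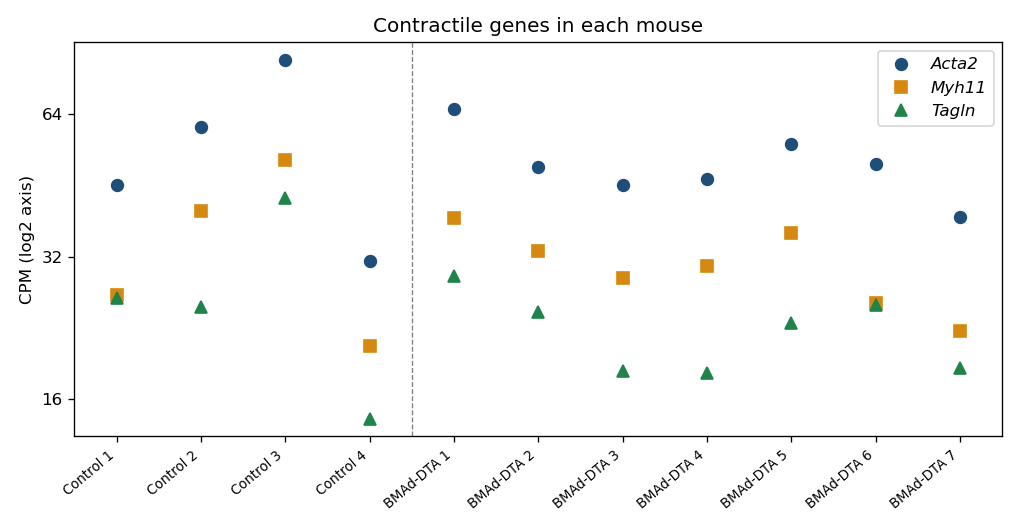
CPM of Acta2, Myh11 and Tagln (symbols, log2 vertical axis) in each library (horizontal axis, Control left and BMAd-DTA right of the dashed line). All 3 genes are highest in Control replicate 3 (83.1, 51.3 and 42.5 CPM) and lowest in Control replicate 4 (31.4, 20.7 and 14.6 CPM).

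Control replicate 3 decided the sign of the contractile fold changes. Without it the log2 fold changes were 0.14 for Acta2, 0.04 for Tagln, 0.08 for Myh11 and 0.65 for Cnn1, and 8 of 10 members had a positive value, with adjusted p from edgeR of 0.619 to 0.945 for these 4. That library also had the highest summed level of 16 skeletal muscle markers (1493 CPM, against 21.5 to 1177 CPM in the others) and the highest summed level of 10 adipocyte markers (1821 CPM, against 405 to 1583 CPM). BMAd-DTA replicate 6, at 1177 CPM of muscle markers, had Acta2 at 50.2, Tagln at 25.3 and Myh11 at 25.6 CPM. Over the 11 libraries the mean log2 CPM of the muscle markers had an r of 0.43 with Acta2 and 0.54 with Tagln. The r was 0.23 with Myh11 and 0.16 with Cnn1. With the mean log2 CPM of the skeletal muscle markers as a covariate the log2 fold changes were 0.0037 for Acta2, -0.10 for Tagln, -0.10 for Myh11 and -0.11 for Cnn1, with adjusted p from edgeR of 0.873 to 0.996. The part of the adipocyte markers in the contractile values was not tested.

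**Figure D4:**
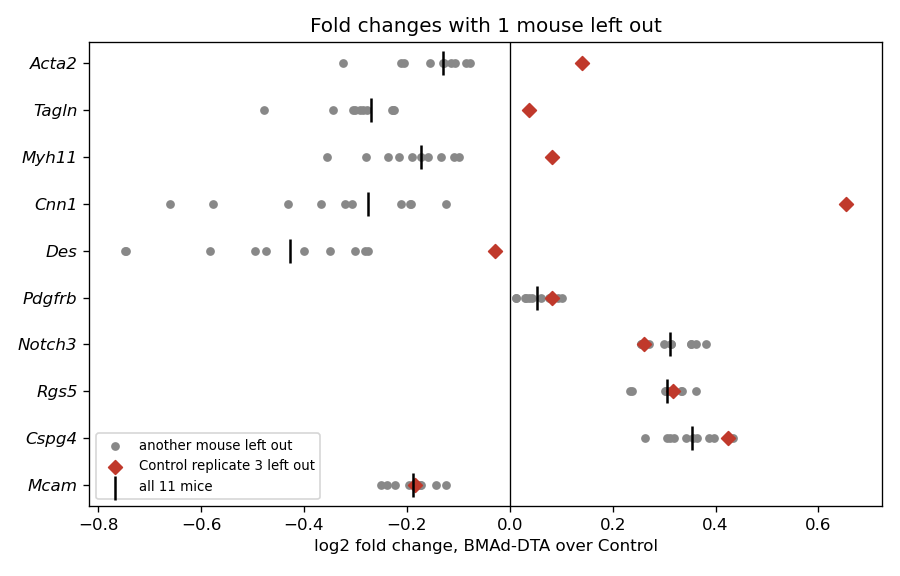
Log2 fold change of each member, BMAd-DTA over Control (horizontal axis), with all 11 mice (bars), with Control replicate 3 left out (diamonds) and with each other mouse left out in turn (grey points). Leaving out Control replicate 3 takes Acta2, Tagln, Myh11 and Cnn1 from below to above 0, whereas Notch3, Rgs5 and Cspg4 stay above 0 and Mcam below 0 with every mouse left out.

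Des encodes desmin, the intermediate filament of smooth muscle, of many pericytes and, most abundantly, of skeletal muscle. It was at 17.6, 23.9, 35.5 and 5.39 CPM in Control and at 5.05 to 33.5 CPM, median 13.5, in BMAd-DTA, the widest relative range of the members other than Cnn1. The groups overlapped almost entirely, and the log2 fold change was -0.43 (SE 0.54, 95% interval -1.60 to 0.74, edgeR adjusted p = 0.756).

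The level of Des followed the skeletal muscle markers of a library in both genotypes. In 4 libraries, Control replicate 4 and BMAd-DTA replicates 2, 3 and 5, the skeletal muscle markers summed to 21.5 to 30.0 CPM, and Des was at 5.05 to 6.83 CPM. In the other 7 they summed to 207 to 1493 CPM, and Des was at 13.5 to 35.5 CPM. Within these 7 libraries the log2 CPM of Des and the mean log2 CPM of the markers had a Pearson r of 0.94 (exact permutation p = 0.00159), a Spearman rho of 0.96 (exact permutation p = 0.00278) and an r of 0.96 without the 2 farthest libraries. The relation was picked out of 160 correlations of members with lists of genes over 11 libraries. Over those 11 its r was 0.98 and its rho 0.93. With the p-values from the 7 libraries multiplied by 160 neither passed (0.254 and 0.445). With 7 libraries no exact p-value could have passed after that step, so the step decides nothing. The libraries with few markers were too few for a value of their own. With the skeletal muscle score as a covariate the log2 fold change of Des was 0.07 (edgeR adjusted p = 0.837). Of the 7 other genes for desmin's partners in the filament network, 5 had positive and 2 negative fold changes with a median of 0.04 and none passed in edgeR. They ran from Cryab, a chaperone that binds desmin, with 0.80 (edgeR adjusted p = 0.072), which DESeq2 called, to Sync, syncoilin, with -0.17, and Dmd was not in the table used.

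**Figure D5:**
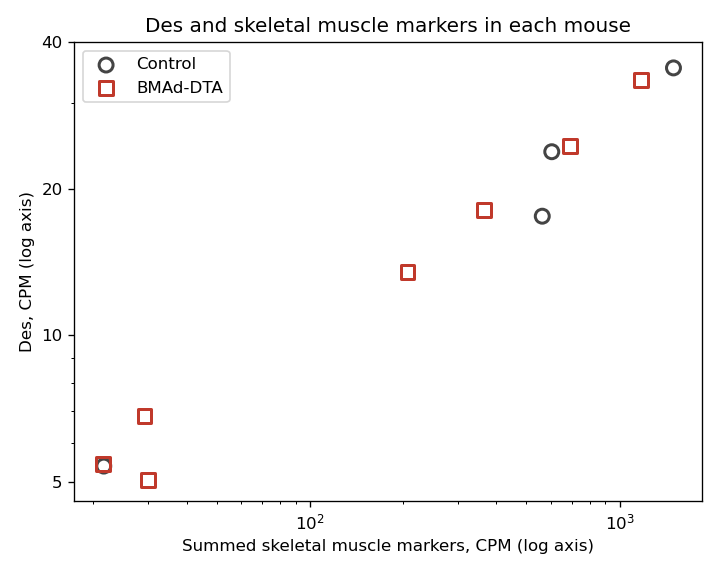
Des (vertical log axis, CPM) against the summed level of 16 skeletal muscle markers (horizontal log axis, CPM) in each Control (circles) and BMAd-DTA (squares) library. In 4 libraries with 21.5 to 30.0 CPM of markers Des is at 5.05 to 6.83 CPM, and both genotypes are at either end.

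The other contractile genes of smooth muscle did not shift as a group. Of 18 tested, 0 rose and 0 fell in edgeR or in DESeq2, 8 fold changes were positive and 10 negative, and the median was -0.04. The values ran from Actg2, the gamma-actin of visceral smooth muscle, with a log2 fold change of 0.54 at about 1 CPM (edgeR adjusted p = 0.574) to Mrvi1, a substrate of cGMP kinase that lowers calcium release, with -0.37 (edgeR adjusted p = 0.334). Of genes for serum response factor and its partners, 0 of 8 tested passed either test, 7 were positive and 1 negative, with a median of 0.11 and a summed level of 526 to 556 CPM in Control and 564 to 619 CPM in BMAd-DTA, without overlap. The fold changes ran from Mef2c, a transcription factor of muscle and endothelium, with 0.36 (edgeR adjusted p = 0.152) to Foxo4 with -0.21. Mef2c, at a mean of 123 CPM in Control and 157 CPM in BMAd-DTA, made up most of the difference in the summed level. Myocd, the myocardin gene itself, had a mean of 0.282 CPM in Control and 0.174 CPM in BMAd-DTA and was too low to be tested.

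Pdgfrb, the receptor through which PDGF-B recruits and holds mural cells, was at 109.5, 125, 126 and 117 CPM in Control. In BMAd-DTA it ran from 98.4 to 145 CPM with a median of 131. Of the BMAd-DTA libraries 4 lay above all Control values and 2, replicates 2 and 7, below them. The log2 fold change was 0.05 (SE 0.10, 95% interval -0.17 to 0.28, edgeR adjusted p = 0.849), the smallest difference of the 10.

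Of 12 genes for PDGF ligands, their other receptors and adaptors, 0 rose and 0 fell in edgeR, with 7 positive and 5 negative fold changes and a median of 0.06. At an unadjusted p under 0.05, edgeR passed 8 of the 12, against 16.4% of all genes. Of these Pdgfa, Pdgfc, Pdgfd and Pdgfra had positive fold changes, and Nrp1, Ptpn11, Pik3r1 and Ptprj negative ones. DESeq2 called Pdgfd and Pdgfra higher, against 5.42% of all its genes called in either direction. Pdgfd, a ligand of the Pdgfrb receptor, had the largest value, with 9.42 ± 0.552 CPM in Control (SD, n = 4) and 14.2 ± 2.58 CPM in BMAd-DTA (SD, n = 7) and a log2 fold change of 0.59 (edgeR adjusted p = 0.0724), all 7 BMAd-DTA libraries lying above all Control libraries. Nrp1, a co-receptor, had the smallest, with -0.25 (edgeR adjusted p = 0.149). Pdgfb, the endothelial ligand, was at 42.3 ± 5.24 CPM in Control (SD, n = 4) and 47.9 ± 7.25 CPM in BMAd-DTA (SD, n = 7), a log2 fold change of 0.18 (edgeR adjusted p = 0.487).

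Notch3, the Notch receptor of mural cells, was at 53.5, 64.6, 51.8 and 63.4 CPM in Control and at 50.6 to 88.9 CPM, median 71.7, in BMAd-DTA. Of the BMAd-DTA libraries 5 lay above all Control values and 1, replicate 7, below them. The log2 fold change was 0.31 (SE 0.14, 95% interval 0.01 to 0.61, edgeR adjusted p = 0.292), so the difference did not pass after adjustment. With Pdgfrb, Notch3 had an r of 0.77 over the 11 libraries (permutation p = 0.00635, adjusted p = 0.057), picked from the 45 pairs of members. Their rho was 0.77 (permutation p = 0.0075, adjusted p = 0.13). The r was 0.73 without the 2 libraries farthest in Pdgfrb and 0.83 after the mean of each genotype was removed.

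Of the other Notch pathway genes, 22 were tested, 16 with positive and 6 with negative fold changes, a median of 0.06 and 0 past the edgeR threshold. Hey1, a transcriptional target of Notch in vessels, had the largest, from 2.43 ± 0.296 CPM in Control (SD, n = 4) to 4.39 ± 1.32 CPM in BMAd-DTA (SD, n = 7), a log2 fold change of 0.86 (edgeR adjusted p = 0.0992). Hey1 was the single gene of this list that DESeq2 called, against 5.42% of all genes in either direction. The smallest was Adam10, the protease that cuts Notch at the surface, with -0.24 (edgeR adjusted p = 0.215). Dll3 and Hes5 were too low to be tested. Heyl, a further Notch target of smooth muscle, had a log2 fold change of -0.18 (edgeR adjusted p = 0.694), opposite in sign to Hey1. Hey2, Hes1 and Nrarp of the same list had the sign of Hey1, with 0.63, 0.11 and 0.04. Their edgeR adjusted p were 0.298, 0.661 and 0.932.

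Rgs5, which speeds the GTPase of G proteins and is among the best known markers of pericytes, was at 88.0, 97.3, 88.8 and 74.6 CPM in Control and at 94.3 to 139 CPM, median 107, in BMAd-DTA. All 7 BMAd-DTA libraries lay above the Control median and 5 above every Control library, and the groups overlapped at Control replicate 2. The log2 fold change was 0.31 (SE 0.10, 95% interval 0.08 to 0.53, edgeR adjusted p = 0.162, DESeq2 adjusted p = 0.0914).

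Cspg4, the proteoglycan NG2 of the pericyte surface, was at 34.2, 23.7, 33.4 and 26.5 CPM in Control and at 30.9 to 44.2 CPM, median 37.4, in BMAd-DTA. As for Rgs5, all 7 BMAd-DTA libraries lay above the Control median and 5 above every Control library. The log2 fold change was 0.35 (SE 0.13, 95% interval 0.08 to 0.62, edgeR adjusted p = 0.176, DESeq2 adjusted p = 0.0919).

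The summed level of 10 osteoblast and osteocyte markers ran from 2352 to 8298 CPM in Control and from 10087 to 21394 CPM in BMAd-DTA, that of 8 tendon markers from 804 to 1249 CPM and from 1366 to 1993 CPM, and that of 7 cartilage markers from 164 to 316 CPM and from 461 to 636 CPM, each without overlap. DESeq2 called 6 of 10 osteoblast markers, 1 of 8 tendon markers (Tnc) and 1 cartilage marker (Col2a1) higher and edgeR none. Over all its genes DESeq2 called 5.42% in either direction. Col1a1, an osteoblast marker, was at 4720.5 CPM in Control and 12016 CPM in BMAd-DTA, Tnc at 564 and 1154 CPM, and Col2a1 at 217 and 468 CPM. Each of these genes made up most of the difference in the sum of its list. BMAd-DTA replicate 3 had both the highest Rgs5 (139 CPM) and the highest osteoblast sum. Over the 11 libraries Rgs5 had a Pearson r of 0.79 and a Spearman rho of 0.91 with the mean log2 CPM of the osteoblast markers. Cspg4 had 0.72 and 0.70 with that of the tendon markers. Both relations were picked from 160 correlations of members with lists of genes, and the genotypes differ in both sums. The part of bone, tendon and cartilage in the Rgs5 and Cspg4 values was not tested.

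Mcam, the adhesion molecule CD146 of pericytes and endothelium, was at 41.4, 43.6, 40.1 and 34.7 CPM in Control and at 25.4 to 42.2 CPM, median 34.6, in BMAd-DTA. Of the BMAd-DTA libraries 4 lay below all Control values and none above them. The log2 fold change was -0.19 (SE 0.12, 95% interval -0.44 to 0.06, edgeR adjusted p = 0.453).

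The summed level of 11 endothelial markers ran from 1191 to 1319 CPM in Control and from 953 to 1335 CPM in BMAd-DTA, with the lowest values in BMAd-DTA replicates 2, 3 and 7, and 0 of 11 passed either test. The mean log2 CPM of these markers had a Pearson r of 0.78 with Mcam over the 11 libraries (permutation p = 0.00335, adjusted p = 0.0335 over 10 members), a Spearman rho of 0.55 (permutation p = 0.088, adjusted p = 0.40) and an r of 0.54 without the 2 farthest libraries. For Pdgfrb r was 0.72 (permutation p = 0.0131, adjusted p = 0.0655), rho 0.61 (permutation p = 0.052, adjusted p = 0.40) and r without the 2 farthest libraries 0.67. Both relations are among the 160 correlations of members with lists of genes. The adjustment given here covers only the 10 with the endothelial score, not all 160. With the endothelial score as a covariate the log2 fold change was -0.09 for Mcam, 0.14 for Pdgfrb and 0.40 for Notch3, with edgeR adjusted p of 0.704, 0.419 and 0.175. Mcam also had an r of 0.76 and a rho of 0.66 with the adipocyte markers, and -0.64 and -0.49 with the tendon markers. The part of adipocyte and tendon markers in the Mcam values was not tested. Pdgfrb had an r of 0.66 and a rho of 0.72 with the list of other pericyte genes. With the other Notch pathway genes it had 0.61 and 0.67, and with the marrow stromal markers 0.62 and 0.58. Its relation with the endothelial score was therefore not particular to that list.

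Other pericyte genes did not move one way either. Of 22 tested, 10 had positive and 12 negative fold changes with a median of -0.01, and edgeR called none. The largest value was that of Anpep, the aminopeptidase CD13, with 29.0 ± 4.27 CPM in Control (SD, n = 4) and 50.5 ± 13.6 CPM in BMAd-DTA (SD, n = 7), a log2 fold change of 0.80 (edgeR adjusted p = 0.072) and all 7 BMAd-DTA libraries above all Control libraries. The smallest was Vtn, vitronectin, with -0.58 at about 1 CPM (edgeR adjusted p = 0.475). DESeq2 called Anpep, Tbx2 and Mfge8 higher and none lower, against 5.42% of all its genes called in either direction. The potassium channel subunits typical of pericytes, Kcnj8 and Abcc9, named after their values were seen, had log2 fold changes of -0.09 and -0.15 (edgeR adjusted p = 0.884 and 0.545), and Higd1b was too low to be tested.

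The genes whose log2 CPM followed each member most closely over the 11 libraries are given as a description, as the highest of 14891 genes with a mean of at least 1 CPM. For Acta2 they were Mid1 (r = 0.97), Myh11 (0.95) and Gulp1 (0.94), and for Myh11 they were Acta2, Mid1 and Gulp1. Tagln was followed most closely by Acta2 (r = 0.91), Zfp335 (0.87) and Nr2c2ap (0.87), and Cnn1 by Zscan21 (0.89), Tom1l2 (0.87) and Mxra7 (0.86). For Des the nearest were the fast skeletal muscle genes Tnni2, Atp2a1 and Myl1, each with an r of 0.99. Pdgfrb had Fzd1 (r = 0.94), Mtss2 (0.93) and Col4a2 (0.92), Notch3 had 2810025M15Rik (0.94), Papss1 (0.93) and Zfp383 (0.91), and Rgs5 had Zfp523 (0.94), Ednrb (0.93) and Loxl4 (0.91). Cspg4 had Tppp3 (r = 0.90), Bhlhe40 (0.89) and Hoxc10 (0.87), and Mcam had Kcnj15 (0.93), Aacs (0.92) and Sema6b (0.90). These libraries differ in genotype, marker content and depth, all of which enter an r.

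The counts used are those on the strand of the gene, which held 95.2% to 99.9% of the stranded counts of each member other than Tagln. For Tagln it held 75.8%, and the gene overlaps Pcsk7 by 108 bases and the antisense gene Gm48529 on the opposite strand. Without strand only 141 counts were assigned to Tagln over all libraries, against 4663 on its strand, and its log2 fold change was -0.06. Antisense genes also overlap Des, Notch3 and Mcam.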

How the data were processed

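Total RNA of whole distal tibiae was sequenced as strand-specific paired libraries. The authors checked reads with FastQC 0.11.9, aligned them to mm10 with STAR and deposited raw counts per gene without normalization, in per-library tables and in 1 merged table, which equals the read-strand counts for the members. Which release of the annotation was counted is not given in the sources used here. Symbols, exon lengths and overlaps came from GENCODE M21 on GRCm38.

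The main test was the quasi-likelihood F test of edgeR 4.0.16 under R 4.3.3, with genotype as its only term, genes kept by filterByExpr, libraries scaled by TMM and two-sided p-values adjusted after Benjamini and Hochberg over the 16496 genes kept. The threshold was an adjusted p of 0.05. The SE of a log2 fold change is its size divided by the square root of F, and intervals are 95%. DESeq2 1.42.0, limma 3.58.1 (voom), other scalings, filters, counts and covariates, and each mouse left out in turn were alternatives. Log2 CPM used a prior count of 2. Permutation tests were two-sided. Steps were tested on simulated data. P-values set a difference or a relation against the spread between these mice, whose replicate numbers are only names.

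The members and lists were chosen with earlier results of these data known. Named were all members, the largest and smallest fold change of each list, genes past the threshold, and the 3 genes most like each member. Genes called by DESeq2, PDGF genes with an unadjusted p under 0.05, Tnc, Col2a1, Pdgfb, Hey2, Hes1, Nrarp, Heyl and Myocd were named after their values were seen. The same holds for the genes of the other observations.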

Additional observations from a re-analysis of the deposited data

Results flagged for a closer look

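Of 52 groups of values examined for a library standing apart from the rest of its group, 6 had one, and chance gives about 1 in 20. Rgs5 in BMAd-DTA replicate 3 was at 139 CPM, above the other 6 BMAd-DTA libraries (94.3 to 109.0 CPM). The contractile genes other than the members summed to 3253 CPM in BMAd-DTA replicate 1, the highest of its group. Control replicate 1 had the lowest sums of its group for marrow stromal markers (3286 CPM) and chondrocyte markers (164 CPM). BMAd-DTA replicate 5 had the lowest sum of neutrophil markers (18336 CPM) and the highest of erythroid markers (6212 CPM) of its group.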

How the results depend on the processing

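No setting brought any member past the threshold. The smallest adjusted p of a member was 0.0914 with DESeq2, and among the fits that left out 1 mouse it was 0.11, without Control replicate 3. With limma-voom the log2 fold change of Cnn1 was 0.40. With the skeletal muscle score as a covariate it was 0.0037 for Acta2, -0.10 for Tagln and for Myh11, -0.11 for Cnn1 and 0.074 for Des, and the members' median was 0.037. That median was -0.0040 with limma-voom, -0.067 with the endothelial covariate and -0.092 with unstranded counts. With 1 mouse left out it ran from -0.32 to 0.14 for Acta2, from -0.48 to 0.037 for Tagln, from -0.36 to 0.082 for Myh11 and from -0.66 to 0.65 for Cnn1, each positive without Control replicate 3 alone, and the members' median from -0.29 to 0.11. The cause was not tested. The other scalings moved the median of all genes by less than 0.02 and changed no sign. Over all genes, the count past the threshold was 13 with all mice, 845 with DESeq2 and 0 to 292 with 1 mouse left out. The 4 Control mice limit precision, and Cnn1 is limited by its counts.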

Other observations

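Genes outside the 10 are named here after their values were seen. Tbx2, a transcription factor gene listed with the pericyte genes, was at 23.4 ± 4.39 CPM in Control (SD, n = 4) and 39.2 ± 9.08 CPM in BMAd-DTA (SD, n = 7), with all 7 BMAd-DTA libraries above all Control libraries and an edgeR adjusted p of 0.0724. Mfge8, a secreted adhesion protein, was at 82.5 ± 13.5 and 115 ± 16.6 CPM, higher than every Control library in 5 of 7 BMAd-DTA libraries (edgeR adjusted p = 0.0905). S1pr3, a receptor for sphingosine 1-phosphate on smooth muscle, was at 52.7 ± 6.58 and 68.1 ± 9.72 CPM (edgeR adjusted p = 0.141), and Agtr1a, the angiotensin II receptor, at 21.0 ± 5.07 and 15.4 ± 2.54 CPM (edgeR adjusted p = 0.185). Ednrb and Loxl4, both among the genes nearest to Rgs5, had log2 fold changes of 0.80 and 1.12 (edgeR adjusted p = 0.136 and 0.072) without overlap between the groups, and DESeq2 called both.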
